A study of Mus musculus with 32 samples.

Results

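The genes described here encode the nuclear part of the oxidative phosphorylation machinery in mouse haematopoietic cells. They were taken from the count table by symbol: Nduf genes for complex I, Sdha to Sdhd for complex II, Uqcr genes and Cyc1 for complex III, Cox4 to Cox8 genes for complex IV, and Atp5 genes for complex V. The rule found 93 of 33924 genes, with 42 in complex I, 4 in complex II, 9 in complex III, 19 in complex IV and 19 in complex V. By function, 20 encode core subunits and 57 encode other subunits, while 5 are assembly factors and 8 are isoforms best known from particular tissues. A further 2 are pseudogene entries, and Cox4nb, which the symbol rule also caught, encodes a subunit of the endoplasmic reticulum membrane complex and no respiratory protein. Every member had counts in at least 1 library, and 84 had a mean level of at least 10 CPM (counts scaled to a common library total) in both cell types.

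Complexes I to IV pass electrons from NADH and succinate to oxygen in the inner mitochondrial membrane, and complexes I, III and IV pump protons while they do so. Complex V, the ATP synthase, uses the proton gradient to make ATP, and complex II is the only one of the 5 whose subunits are all encoded in the nucleus. In blood formation, quiescent stem cells are known to rely more on glycolysis, and committed progenitors, above all erythroid ones, build up mitochondria.

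The study profiled 2 sorted marrow populations by RNA sequencing: LSK cells, which are negative for lineage markers and carry Sca1 and Kit and hold the stem and multipotent progenitors, and megakaryocyte-erythroid progenitors (MEP). All libraries carry the label Jak2v617f, the mutant kinase of myeloproliferative neoplasms: it was switched on outside the body with mRNA of the recombinase Dre, and the cells were transplanted into lethally irradiated mice, so that the controls carry it too. Tamoxifen activated Cre, which removes the mutant allele, and cells were taken on day 3 or day 7; other mice received ruxolitinib, a JAK1 and JAK2 inhibitor, for 7 days with the allele left in place; vehicle mice are labelled day 0. The 32 libraries form 10 groups: in batch A, vehicle (4 LSK, 3 MEP), tamoxifen day 3 (3 LSK, 4 MEP) and tamoxifen day 7 (4 LSK, 3 MEP), and in batch C, vehicle (2 LSK, 3 MEP) and ruxolitinib (3 LSK, 3 MEP). Only the titles of vehicle libraries carry a letter, a or c. No title of a treated library names a batch, so the batch of the treated groups is an inference. The count columns of tamoxifen libraries are named like those of vehicle A, and the ruxolitinib ones more like those of vehicle C. No group without the mutant allele and no group with tamoxifen but no deletable allele was analysed here, and the sources used here give neither the driver of Cre nor the pooling of animals nor ages. The labels number the replicates but do not tie each to its own animal, so p-values measure the spread between these libraries, which may in part be technical.

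Total counts per library ran from 11160696 to 28838622 in batch A, and batch C was deeper, at 26511752 to 55473241. The sorts carried their defining markers in part. The summed level of 13 erythroid genes was 14190 to 22300 CPM in vehicle A MEP and 1576 to 3392 CPM in vehicle A LSK. The 10 stem and multipotent genes ran the other way, with 351.9 to 663.0 CPM in MEP and 1175 to 3765 CPM in LSK. The 12 megakaryocyte genes were also lower in MEP, at 76.98 to 112.0 CPM against 1514 to 3120 CPM in LSK. Levels are CPM scaled by TMM (trimmed mean of M-values) factors within each cell type. The levels per kilobase of exon and the Cox6a2 means of the comparison between cell types were scaled over both cell types together, so they differ somewhat from the others. In bulk samples, fewer cells of a type and less RNA of a gene per cell cannot be told apart.

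Promoters of respiratory genes are known for binding sites of NRF1, of ETS factors such as GABP, and of YY1, so the stretch before the start of the members that the results turn on is shown first. RefSeq gave a promoter for 74 of the 93 members (assembly GRCm38.p6), and the window searched ran from 250 bases before to 50 bases after the start. The motifs were the NRF1 core (GCGCA and GCGC with any 1 base between them), the ETS motif CCGGAAG and the YY1 motif AAGATGGC, each on both strands; matches of different motifs that overlap were counted for each. Below are the 120 bases upstream of the start of Sdha, whose level moved little, then of 2 members that differed most between libraries and of the 2 with the steepest falls in MEP on day 7. Capitals mark NRF1 core matches.
Sdha, chr13:74350241-74350360, minus strand: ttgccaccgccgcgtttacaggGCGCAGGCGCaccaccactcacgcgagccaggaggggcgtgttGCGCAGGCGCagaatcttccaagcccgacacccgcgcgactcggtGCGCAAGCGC
Cox5a, chr9:57521112-57521231, plus strand: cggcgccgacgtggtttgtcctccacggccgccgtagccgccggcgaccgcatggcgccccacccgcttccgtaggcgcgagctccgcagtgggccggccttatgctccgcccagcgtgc
Uqcrfs1, chr13:30545317-30545436, minus strand: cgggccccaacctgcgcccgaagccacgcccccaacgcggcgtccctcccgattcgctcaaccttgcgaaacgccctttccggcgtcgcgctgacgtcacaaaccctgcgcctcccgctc
Atp5d, chr10:80142155-80142274, plus strand: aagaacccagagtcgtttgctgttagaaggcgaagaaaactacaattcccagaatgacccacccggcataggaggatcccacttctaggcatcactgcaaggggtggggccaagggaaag
Atp5b, chr10:128083187-128083306, plus strand: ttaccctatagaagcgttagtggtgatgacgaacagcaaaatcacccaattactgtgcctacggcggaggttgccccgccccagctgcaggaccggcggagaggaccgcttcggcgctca
Sdha held 3 matches in these 120 bases, and the other stretches printed held none of the 3 motifs. The printed stretches do not stand for all members that fell steeply. In the wider window Cox6a1 held 2 NRF1 cores and 1 ETS match, and Cox8a held 2 ETS matches. Atp5d, Atp5b, Ndufa10 and Cox5b held none there. Over the full windows, 23.0% of the 74 members and 4.78% of 27025 promoters of all genes held the NRF1 core. The ETS motif was in 21.6% of members and 9.12% of all promoters, and the YY1 motif in 13.5% and 2.88%. At least 1 of the 3 was found in 38 of the 74 members (51.4%) and in 15.2% of all promoters. A match is a description of letters, and its absence says only that these letters are not in this window.

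Under vehicle, most members were higher in MEP than in LSK. In batch A, 70 of 93 were higher and 1 was lower by edgeR's quasi-likelihood test at a Benjamini-Hochberg adjusted p of at most 0.05; of all genes tested, 8.7% were higher and 8.71% lower, and of the genes expressed at 10 CPM or more, 24.7% were higher. The members' median log2 difference was 1.14, against -0.27 for all genes and 0.22 for the expressed ones. The higher members numbered 37 of 42 in complex I, 3 of 4 in complex II, 7 of 9 in complex III, 10 of 19 in complex IV and 13 of 19 in complex V.

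The widest gap among well-expressed members was that of Cox6b2, an isoform of complex IV subunit 6b best known from testis. Scaled within each cell type, its level was 170.2, 158.1 and 92.43 CPM in the 3 vehicle A MEP libraries and 11.55, 26.83, 22.55 and 25.49 CPM in the 4 vehicle A LSK libraries. Every MEP library lay above every LSK library, and in the joint fit MEP was 8.34-fold higher (log2 3.06, SE 0.32; edgeR adjusted p = 1.43e-08). Its common counterpart Cox6b1 remained the more abundant form per length of exon, with a mean of 718.6 CPM per kilobase in vehicle A MEP against 206.1 for Cox6b2, and 256.6 against 24.7 in LSK.

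Next came Ndufa5, an accessory subunit of the complex I peripheral arm, which was 3.98-fold higher in MEP (log2 1.99, SE 0.28; edgeR adjusted p = 1.96e-06). Atp5g1, 1 of 3 genes for the c ring of the ATP synthase, was 3.64-fold higher (log2 1.86, SE 0.28; edgeR adjusted p = 7.1e-06). The small complex III subunits Uqcr10 and Uqcr11 had log2 differences of 1.83 and 1.82. Cox6a1, Ndufs6 and Cox7a2 followed with 1.79, 1.69 and 1.66. Cox6a2, the heart and muscle form of subunit 6a, was the single lower member (log2 -3.33, SE 1.14; edgeR adjusted p = 0.0375), at a mean of 0.189 CPM in MEP and 1.83 CPM in LSK.

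Of the members that did not pass this test, Sdha, the flavoprotein of succinate dehydrogenase, had a log2 difference of 0.69 (edgeR adjusted p = 0.0717). Atp5d, the delta subunit of the ATP synthase stalk, had 0.84, Uqcrfs1 0.89, Cyc1 0.11, Ndufab1 -0.88, Cox4nb -1.12 and Cox5a -1.41; the edgeR adjusted p of Cox5a was 0.344. The last 5 of these are the members that differed most between libraries of 1 cell type.

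In batch C the cell types differed in the same direction for fewer members: 46 were higher and 2 lower in MEP by the same test, beside 8.09% of all genes higher and 8.46% lower. The median log2 difference was 0.97, and 74 members had every MEP library above every LSK library, a count without a share of all genes beside it. Only 2 LSK vehicle libraries stand behind the number of called members, which was 30 without MEP replicate 1 and 31 without MEP replicate 3. It was 4 when the 2 groups were fitted alone. Cox6b2 had a log2 difference of 3.04 (edgeR adjusted p = 1.65e-06), and Cox4i2, the hypoxia and lung form of subunit 4, was lower in MEP (log2 -2.41, SE 0.68; edgeR adjusted p = 0.0106).

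Other mitochondrial genes were also higher in vehicle A MEP. Of 79 mitochondrial ribosomal protein genes tested, 60 were higher and none lower, with a median log2 difference of 1.14. The citrate cycle had 10 of 16 higher, among them Cs, the first enzyme of the cycle, with 1.603; the carriers and partners had 6 of 9 and the assembly factors outside the members 8 of 22. Transcripts encoded in the mitochondrial genome were higher for 8 of 12. Among 14 regulators of mitochondrial genes, Tfam, which packages and transcribes mitochondrial DNA, was higher (0.86) and Gabpb1, a GABP subunit, was lower (-1.85).

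**Figure D1:**
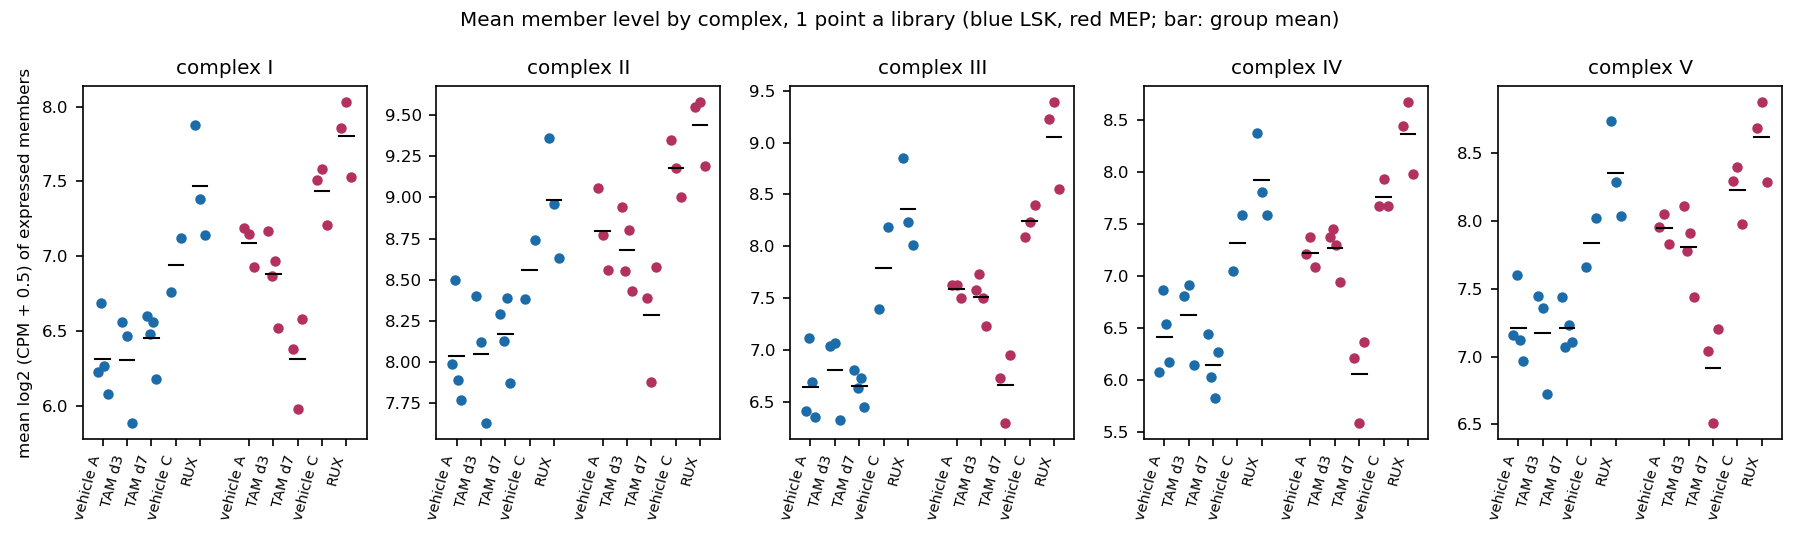
Mean of log2(CPM + 0.5) over the expressed members of each complex, 1 point per library, for the 5 groups of LSK (blue) and MEP (red), with bars at group means; CPM was scaled within each cell type. The 3 MEP tamoxifen day 7 libraries lie below the 3 MEP vehicle A libraries in complexes I, III, IV and V, with complex IV at 5.59 to 6.37 against 7.09 to 7.37, while in complex II they run from 7.88 to 8.58 against 8.56 to 9.06. The means of complex IV include Cox4nb.

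Levels within a complex were uneven. The exon length used here merges all annotated exons of a gene, so long alternative exons lower a value per kilobase. Per kilobase of exon, Atp5b, the catalytic beta subunit of the ATP synthase, had the highest mean of all members in vehicle A MEP, 2041 ± 272 CPM (SD, n = 3), and 1007 ± 283 CPM in vehicle A LSK (SD, n = 4). Uqcr11 followed with 1055 ± 114 CPM per kilobase in MEP, and Cox4i1, the common form of subunit 4 of complex IV, had 915.4 ± 120 CPM per kilobase. Cox5a, which sits beside Cox4i1 in complex IV at equal number, had 2.71 ± 1.40 CPM per kilobase in MEP and 7.22 ± 6.07 in LSK, although its partner Cox5b had 336.7 ± 44.5 in MEP.

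Uqcrfs1, the Rieske iron-sulphur protein of complex III, stood at 15.05 CPM per kilobase in vehicle A MEP, beside 811.4 for Uqcrc1 of the same complex. In complex II the 4 genes had means of 644.5 (Sdhd), 434.3 (Sdhb), 358.5 (Sdha) and 43.3 CPM per kilobase (Sdhc). Of the genes for the c ring, Atp5g3 had 611.1 ± 56.1 CPM per kilobase (SD, n = 3), Atp5g2 136.8 ± 5.30 and Atp5g1 134.3 ± 13.0. Per kilobase the last pair did not differ beyond their spread, but this order depends on the annotated length. The merged exons span 4912 bases for Atp5g1, 731 for Atp5g2 and 724 for Atp5g3. In CPM without length, scaled within MEP, Atp5g1 had the highest mean of the 3, at 608.8. Atp5g3 had 408.3 CPM and Atp5g2 92.38 CPM. The muscle forms Cox6a2 and Cox8b and the hypoxia-linked Ndufa4l2 were all under 1 CPM per kilobase in MEP, at 0.278, 0.468 and 0.186.

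On day 7 after tamoxifen, MEP had lower levels of a wide set of members. By edgeR's test 27 of 90 fell and none rose, beside 7.03% of all genes that fell, 1.38% that rose and 20.7% of the expressed ones that fell. The members' median log2 change was -0.69, against 0.21 for all genes and -0.39 for the expressed ones. All 3 day 7 libraries lay below all 3 vehicle A libraries for 67 members. No share of all genes is given for that count, so it does not set the members apart. Of complex I, 14 of 41 fell, of complex III 4 of 9, of complex IV 6 of 17, of complex V 3 of 19 and of complex II none of 4. The 6 of complex IV include Cox4nb, which encodes no respiratory protein. The totals for complexes IV and V also hold tissue isoforms and pseudogenes, none of them called. Core subunits made up 7 of the 27 and assembly factors 2. As a share of each library's counts, which needs no scaling factor, the members took 1.83% to 1.93% on day 7 and 2.59% to 2.77% under vehicle A. Abundant genes weigh most in such a share. Atp5b alone had a mean of 3607 CPM under vehicle A and 281.8 CPM on day 7. The share therefore does not show how widely the members fell.

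The fall was far from even. In ATP synthase, Atp5d had 313.0, 484.1 and 378.9 CPM in vehicle A MEP and 23.97, 10.47 and 16.46 CPM on day 7. The groups do not overlap, the lowest vehicle library stands more than 10-fold above the highest day 7 library, and the fitted fall was 23.1-fold (log2 -4.53, SE 0.34; edgeR adjusted p = 2.21e-09). Atp5b had 3735, 3924 and 3163 CPM under vehicle and 320.3, 143.2 and 381.9 CPM on day 7, a fall of 12.8-fold (log2 -3.68, SE 0.33; edgeR adjusted p = 1.77e-08). Again no day 7 library came near a vehicle library.

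The alpha subunit that alternates with Atp5b in the catalytic head was not called. Atp5a1 had 2441, 1920 and 1546 CPM under vehicle and 1513, 860.5 and 1510 CPM on day 7, so its day 7 libraries all lie below vehicle, but only just (log2 -0.60, SE 0.27; edgeR adjusted p = 0.208). The ratio of Atp5b to Atp5a1 counts, which is free of library scaling, was 153%, 204.4% and 204.5% under vehicle and 21.17%, 16.65% and 25.29% on day 7. Likewise the counts of Atp5d were 42.25%, 75.93% and 62.75% of those of Atp5c1, the gamma subunit of the same stalk, under vehicle, and 5.86%, 3.55% and 3.49% on day 7. Atp5c1 itself had a log2 change of -0.75 (SE 0.23) and passed edgeR's test (adjusted p = 0.0438).

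In complex I the widest fall was that of Ndufa10, an accessory subunit of the membrane arm. It had 306.5, 320.7 and 277.3 CPM under vehicle and 48.11, 25.1 and 47.82 CPM on day 7, with no overlap, a fall of 7.47-fold (log2 -2.90, SE 0.26; edgeR adjusted p = 2.54e-08). Its counts were 67.22%, 87.36% and 92.9% of those of Ndufa9, another accessory subunit, under vehicle and 15.99%, 13.27% and 15.54% on day 7. Other complex I genes that fell did so by less, among them Ndufab1, the mitochondrial acyl carrier protein, by 1.44, Ndufa6 by 1.24 and Ndufa5 by 1.06 on the log2 scale, and Ndufb5 by 0.69.

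The 3 widest falls in complex IV were more than 4-fold. Cox8a, the common form of the smallest subunit, had 458.6, 456.8 and 363.5 CPM under vehicle and 84.93, 24.77 and 81.05 CPM on day 7, a 6.7-fold fall (log2 -2.75, SE 0.36; edgeR adjusted p = 5.73e-06). Cox5b, which binds zinc in complex IV, had 249.8, 331.3 and 279.1 CPM and then 61.21, 25.47 and 75.81 CPM, a 5.29-fold fall (edgeR adjusted p = 1.42e-05). Cox6a1 had 399.3, 448.1 and 327.3 CPM and then 122.0, 45.33 and 114.1 CPM, a 4.17-fold fall (edgeR adjusted p = 0.000185). None of the 3 overlapped with vehicle, and day 7 replicate 2 was the lowest library each time. Cox4i1 of the same complex had 646.4, 720.6 and 571.9 CPM under vehicle and 405.2, 290.6 and 438.6 CPM on day 7 (log2 -0.77; edgeR adjusted p = 0.0907).

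These 6 genes, Atp5d, Atp5b, Ndufa10, Cox8a, Cox5b and Cox6a1, are the expressed members with a log2 change of -2 or lower, 7.14% of the 84, and 368 of 8072 expressed genes (4.56%) lay there too. They were set apart after their values were seen. They lie on chromosomes 10, 10, 1, 19, 1 and 5: Atp5d at 80138632 to 80145818 and Atp5b at 128083273 to 128090391 on chromosome 10, Ndufa10 at 92439010 to 92473860 on chromosome 1, Cox8a at 7215153 to 7217616 on chromosome 19, Cox5b at 36691449 to 36693681 on chromosome 1 and Cox6a1 at 115345642 to 115348981 on chromosome 5 (mm10, whole gene spans in GENCODE M21). The GC content of their longest transcripts runs from 49.0% to 62.7%, with a median of 55.3%. That lies within the 37.0% to 63.3% of the other 73 expressed members outside the varying 5, but their median is lower, at 49.8%. At least 1 of the 3 promoter motifs was in 10 of 22 members that fell (45.5%) and 28 of 50 that were not called (56.0%).

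In complex III, 4 small or core genes fell: Uqcrq by 1.09, Uqcr10 by 1.03, Uqcrc1, the first core protein, by 1.01 and Uqcr11 by 0.96 on the log2 scale. Cyc1, the cytochrome c1 that hands electrons to cytochrome c, had 33.28, 41.32 and 38.57 CPM under vehicle and 13.17, 9.81 and 16.24 CPM on day 7. These libraries do not overlap, but the fit across all 5 MEP groups gave log2 -1.53 with SE 0.51 (edgeR adjusted p = 0.0659), and over the alternatives that were run the edgeR or DESeq2 adjusted p ran from 5.67e-05 to 0.336, lowest with the replicate block. Uqcrfs1 had 17.21, 19.42 and 20.35 CPM under vehicle and 9.64, 9.16 and 13.57 CPM on day 7 (log2 -0.82; edgeR adjusted p = 0.446).

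Complex II was the complex with no gene called. Sdha had 1178, 932.3 and 755.9 CPM under vehicle and 834.5, 548.2 and 1003 CPM on day 7 (log2 -0.27, SE 0.25; edgeR adjusted p = 0.627), and the groups overlap. Sdhd, the membrane anchor, had log2 -0.69 (adjusted p = 0.0735 by edgeR), Sdhb, the iron-sulphur subunit, -0.65 (0.116) and Sdhc, the other anchor, -0.39 (0.47). Sdhd passed with RLE scaling and by DESeq2, and Sdhb by DESeq2. The counts of Sdhb were 47.09%, 48.08% and 48.3% of those of Sdha under vehicle and 36.71%, 41.83% and 33.72% on day 7.

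The number of members that fell differed with the method and with single libraries. No share of all genes is given for these other settings, so their counts do not set the members apart. Without TMM factors 12 fell and 1, Atp5sl, rose (log2 0.73), and DESeq2 called 46 lower; the 6 steepest falls had an edgeR or DESeq2 adjusted p of at most the threshold under every alternative that was run. The count was 16 without vehicle replicate 1, 14 without vehicle replicate 2, 14 without day 7 replicate 1 and 12 without day 7 replicate 2.

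The other mitochondrial lists are read against the 20.7% of expressed genes that fell. Of 79 mitochondrial ribosomal protein genes 32 fell (40.5%), led by Mrpl54 (log2 -3.85), Mrpl38 (-3.75) and Mrps22 (-2.91). Among the carriers and partners 5 of 9 fell (55.6%), including Slc25a3, the phosphate carrier that feeds ATP synthase, with -2.43. The assembly factors, the citrate cycle and the regulators were near that share. The assembly factors had 5 of 22 lower (22.7%), with Acad9, which builds complex I, at -3.04, and the citrate cycle 3 of 16 (18.8%), with Dlat of pyruvate dehydrogenase at -2.92. Of the regulators 3 of 14 fell (21.4%): Polrmt, the mitochondrial RNA polymerase, by 1.87, Gabpb1 by 1.41 and Nrf1 by 1.0 on the log2 scale. None of the 12 mitochondrially encoded transcripts was called in edgeR's fit, with a median of -0.41.

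Cell type markers moved at the same time. On day 7 the 12 megakaryocyte genes summed to 328.3 to 551.7 CPM, against 76.98 to 112.0 CPM under vehicle A, and 9 of 11 tested rose. The 13 erythroid genes summed to 10160 to 15760 CPM against 14190 to 22300 CPM, and 7 fell. Granulocyte and monocyte genes rose from 21.67 to 25.87 CPM up to 70.03 to 98.08 CPM, with 4 of 10 called, and lymphoid genes from 13.68 to 16.59 CPM up to 42.25 to 65.7 CPM, with 2 of 9 called. Of the stem and multipotent genes 2 of 10 rose, of the mast cell and basophil genes 2 of 6 and of the macrophage genes none of 5. No marker was at 0 in a whole group, and the part of these cells in the members' values was not tested.

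**Figure D2:**
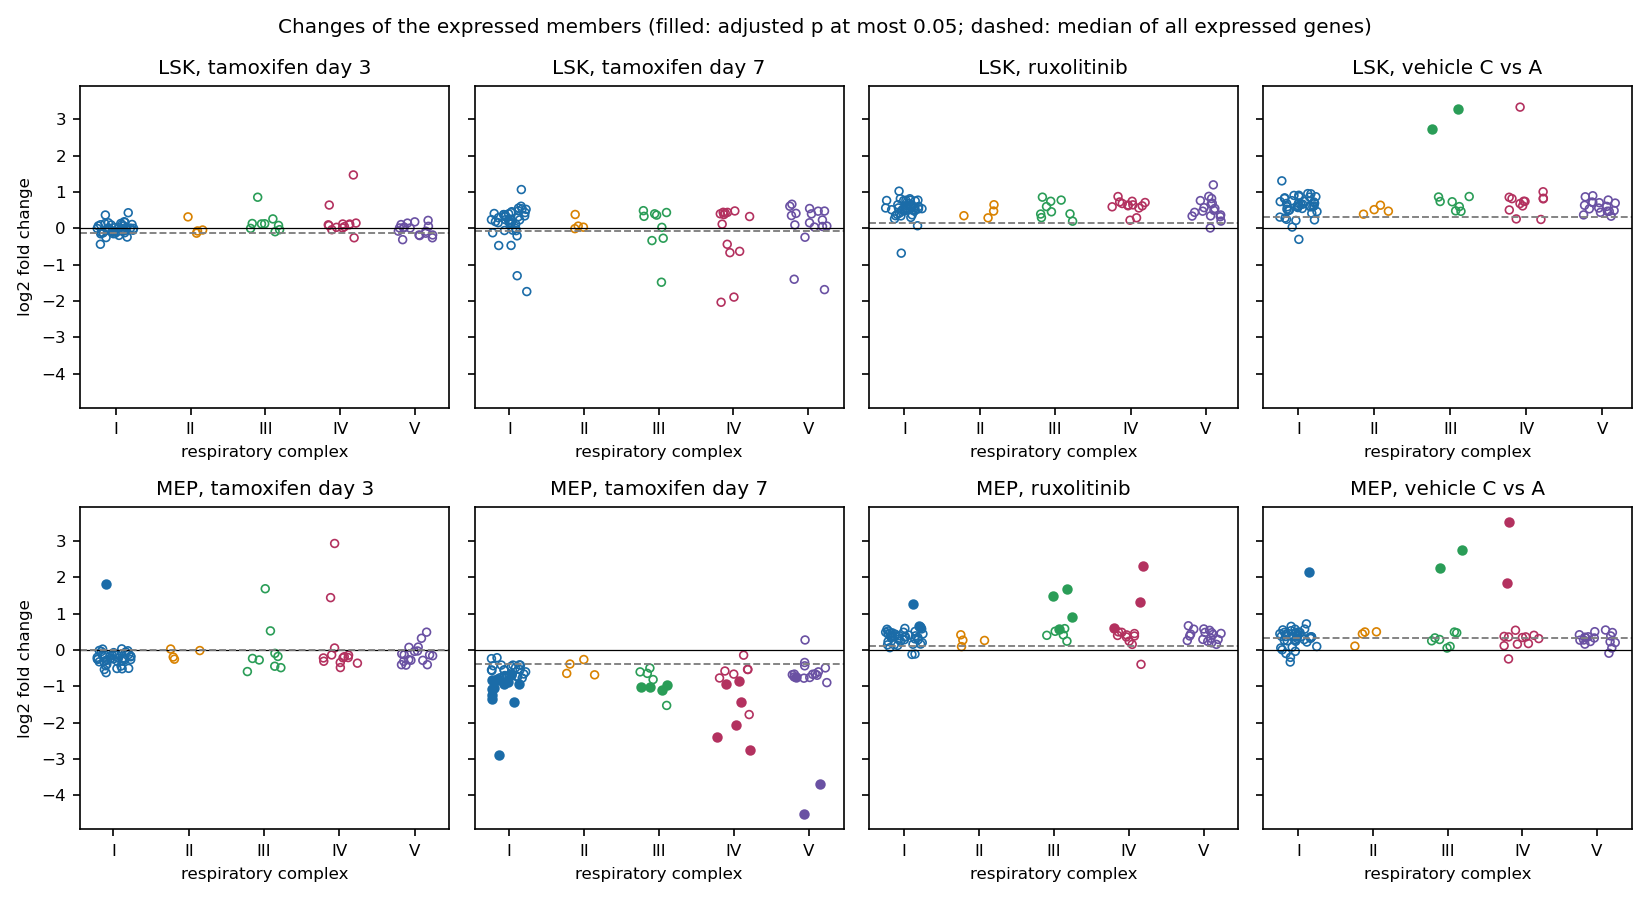
Log2 fold change of each expressed member, by complex, in 8 comparisons (top row LSK, bottom row MEP); filled points have an edgeR adjusted p of at most 0.05 and the dashed line is the median of all expressed genes. In MEP on day 7 the points reach -4.53 (Atp5d), while in both vehicle comparisons a few points of complexes III and IV stand above the rest, at up to 3.52.

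On day 3 after tamoxifen few members of MEP were called. By edgeR's test 1 of 90 was, beside 1.21% of all genes, and the median log2 change was -0.21. The count was 5 on genes of at least 10 CPM (2 higher, 3 lower), 12 with a GC offset on those genes (3 higher, 9 lower), and 4 each with DESeq2, without a filter and in the 2 groups alone. The gene called was Ndufab1, which had 23.27, 55.14 and 43.56 CPM under vehicle A and 61.97, 222.1, 119.5 and 165.6 CPM on day 3, all above vehicle (log2 1.81, SE 0.41; edgeR adjusted p = 0.0225). It was not called without vehicle replicate 1 or 3, nor without day 3 replicate 2, 3 or 4. The 6 genes with the steepest day 7 falls were near vehicle, for example Atp5b with 4406, 3469, 4213 and 3139 CPM (log2 0.08, SE 0.28) and Atp5d with 471.6, 439.5, 413.1 and 322.1 CPM (log2 0.07, SE 0.27).

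Other members that missed the test on day 3 had wide spreads. Cox5a had 0.643, 2.25 and 2.002 CPM under vehicle and 1.45, 29.08, 6.78 and 12.86 CPM on day 3 (log2 2.93, SE 0.75; edgeR adjusted p = 0.0501). Day 3 replicate 1 lies within the vehicle range and the other 3 above it. Cyc1 had 36.32, 217.5, 85.04 and 145.9 CPM on day 3 (log2 1.68; edgeR adjusted p = 0.105), Cox4nb 35.54, 117.6, 48.06 and 83.16 CPM (log2 1.44; adjusted p = 0.0726 by edgeR), and both had replicate 2 highest and replicate 1 lowest. Without replicate 1, 4 members were called: Ndufab1, Cox5a, Cyc1 and Cox4nb.

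Between day 3 and day 7, edgeR's test called 13 of 90 members lower and none higher in MEP, beside 6.43% of all genes lower. With the replicate number as a block it called 30, all lower. The steepest change was in Cox5a, with 0.396, 0.280 and 0.754 CPM on day 7 (log2 -4.71, SE 0.86; edgeR adjusted p = 0.000353). Atp5d (-4.60), Atp5b (-3.76), Ndufab1 (-3.25), Cyc1 (-3.21), Ndufa10 (-2.92), Cox4nb (-2.88) and Cox8a (-2.43) followed. The members' median log2 change was -0.44, against -0.33 for the expressed genes; without scaling factors the member median was 0.05 and with the GC offset 0.00, so its sign is not settled.

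Under ruxolitinib, more members of MEP were higher than lower. Against vehicle C, 10 of 90 were higher and 3 lower by edgeR's test, where 42.0% of all genes were called, 3.43% higher and 38.5% lower; of the expressed genes 7.36% were higher and 6.76% lower. The median log2 change was 0.39 for the members, -1.07 for all genes and 0.12 for the expressed ones. The count differed widely between methods: with RLE factors 46 were higher and 3 lower, and with DESeq2 the same numbers, while 2, Uqcrc1 and Cox7b, were called when the 2 groups were fitted alone. The shares of all genes above belong to the TMM fit. None is given for these other settings, so their counts do not set the members apart. The count was 4 without vehicle replicate 1, 2 without vehicle replicate 2, 1 without ruxolitinib replicate 2 and 23 without ruxolitinib replicate 3.

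The 5 largest rises were in the genes that differ most between libraries. Cox5a had 4.44, 9.60 and 42.49 CPM under vehicle C and 108.5, 124.6 and 47.22 CPM under ruxolitinib (log2 2.31, SE 0.71; edgeR adjusted p = 0.0123). Ruxolitinib replicate 3 is little above vehicle replicate 3. Cyc1 had 104.7, 149.8 and 505.1 CPM and then 1031, 1001 and 400.8 CPM (log2 1.68; edgeR adjusted p = 0.0107), and Uqcrfs1 had 26.06, 41.46 and 204.6 CPM and then 351.5, 303.4 and 107.7 CPM (log2 1.49; edgeR adjusted p = 0.0244). In both, ruxolitinib replicate 3 fell inside the vehicle range.

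Ndufab1 had 76.31, 138.8 and 325.8 CPM under vehicle C and 462.5, 479.5 and 364.3 CPM under ruxolitinib (log2 1.27; edgeR adjusted p = 0.0167). Cox4nb had 47.79, 60.88 and 175.4 CPM and then 261.3, 288.8 and 161.3 CPM (log2 1.33; edgeR adjusted p = 0.0115). None of the 5 was called without vehicle replicate 1, without vehicle replicate 2 or without ruxolitinib replicate 2. Uqcrc1, with 1221, 1175 and 1442 CPM under vehicle and 2483, 2894 and 1769 CPM under ruxolitinib, rose with no overlap (log2 0.90, SE 0.29; edgeR adjusted p = 0.0156). Ndufb4, Ndufv2, Cox7b and Uqcrb had 0.66, 0.62, 0.60 and 0.59.

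The genes with the steepest day 7 falls were not called under ruxolitinib. Atp5b had 5429, 4898 and 4743 CPM under vehicle C and 6545, 6589 and 4871 CPM under ruxolitinib (log2 0.26, SE 0.29; edgeR adjusted p = 0.504), and the groups overlap. Atp5d had 592.2, 691.3 and 434.2 CPM and then 813.2, 928.5 and 499.9 CPM (log2 0.38; edgeR adjusted p = 0.294). Ndufa10 had log2 0.14 (edgeR adjusted p = 0.675). The 3 lower members were the isoforms Cox7b2, Cox8c and Cox4i2, with log2 changes of -2.90, -2.86 and -2.50 at levels of about 1 CPM or less. Among them Cox4i2 had 1.01, 0.990 and 0.194 CPM under vehicle C and 0.331, 0.0284 and 0.0294 CPM under ruxolitinib.

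The difference between the treatments was tested itself, each against vehicle of its batch. In that test the day 7 tamoxifen change lay below the ruxolitinib change for 67 of 90 members and above it for 3, beside 9.46% of all genes below, 36.5% above and 27.9% of the expressed ones below. All 9 members of complex III, 31 of 41 in complex I, 14 of 19 in complex V, 11 of 17 in complex IV and 2 of 4 in complex II were among the 67. Cox4nb is counted among the 11 of complex IV. The widest gaps were in Atp5d (log2 -4.91, SE 0.43; edgeR adjusted p = 5.6e-08), Cox5a (-4.09; 0.00647), Atp5b (-3.94; 9.05e-07), Cyc1 (-3.21; 0.00179) and Ndufa10 (-3.04; 2.11e-06). Fitted on the expressed genes the count was 36, and without scaling factors 22, of which 19 were below. What of the batch the vehicles do not correct cannot be told apart from the treatment in this test.

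Markers of other cell types moved under ruxolitinib too. Megakaryocyte markers had sums of 299.5 to 489.7 CPM against 42.92 to 104.4 CPM under vehicle C and 8 of 11 called higher and 1 lower. Granulocyte and monocyte sums were 60.51 to 203.6 CPM against 5.918 to 19.49 CPM, with 5 of 10 called higher and 3 lower. Mast cell and basophil sums were 19.12 to 52.23 CPM against 3.363 to 7.817 CPM, with 4 of 6 higher and 1 lower, and stem and multipotent sums 760.9 to 845.7 CPM against 278.3 to 620.0 CPM, with 2 of 10 higher. None of these 4 sums overlapped with vehicle C. Lymphoid and macrophage sums overlapped with it, at up to 22.28 and 12.13 CPM. Erythroid sums were 22380 to 26020 CPM against 22930 to 25880 CPM. The mitochondrial ribosome had 5 of 79 genes higher and 1 lower, the regulators 3 of 14 higher and 1 lower, the assembly factors 1 of 22 higher and 2 lower, and the carriers, the citrate cycle and the mitochondrially encoded transcripts none called by edgeR, with medians of 0.35, 0.20 and 0.24. The part of other cells in these values was not tested.

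**Figure D3:**
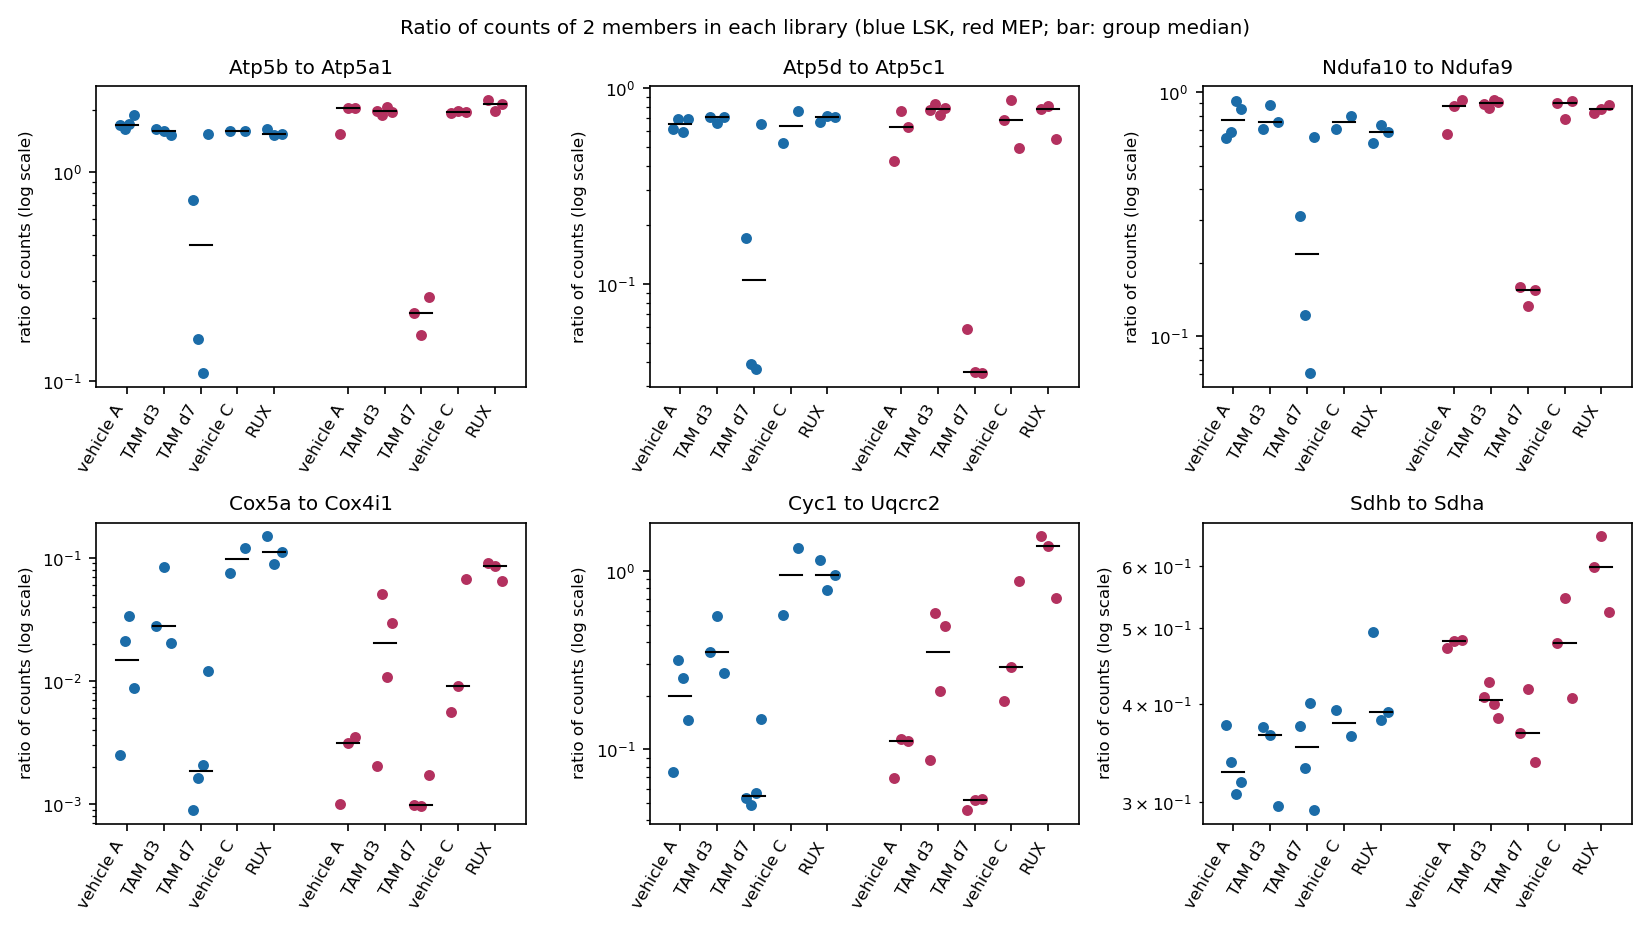
Ratio of the counts of 2 members within each library, on a log axis, for the 5 groups of LSK (blue) and MEP (red), with bars at group medians. Atp5b to Atp5a1 lies at 21.17%, 16.65% and 25.29% in MEP on day 7, below every other MEP library, and 1 of the 4 LSK day 7 libraries, at 153.6%, stays beside vehicle; Cox5a to Cox4i1 and Cyc1 to Uqcrc2 climb from vehicle A to vehicle C.

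In LSK no member was called in any treatment by edgeR's test. The share of all genes called was 0.0% on tamoxifen day 3, 0.104% on day 7 and 0.0223% under ruxolitinib. At an unadjusted edgeR p under 0.05 there were 1, 14 and 22 members. No share of all genes at that threshold is given, so these counts do not set the members apart. DESeq2 called 0, 1 and 0. The median log2 changes were 0.01, 0.23 and 0.56, where the expressed genes had -0.13, -0.07 and 0.15.

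The day 7 LSK libraries did not behave alike. Atp5b had 2313, 3027, 1776 and 1970 CPM under vehicle A and 1209, 200.7, 156.8 and 1878 CPM on day 7 (log2 -1.40, SE 0.57; edgeR adjusted p = 0.398). Replicates 2 and 3 lie far below vehicle, replicate 1 somewhat below it and replicate 4 inside it. Atp5d showed the same order, with 285.7, 390.8, 190.6 and 244.8 CPM under vehicle and 76.62, 17.4, 17.86 and 234.2 CPM on day 7 (log2 -1.68; edgeR adjusted p = 0.282). Ndufa10 had 89.96, 27.76, 19.54 and 130.5 CPM on day 7, all below the 146.7 to 200.1 CPM of vehicle (log2 -1.30; edgeR adjusted p = 0.245).

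The count ratios gave the same split. Atp5b counts were 73.74%, 15.86%, 10.85% and 153.6% of Atp5a1 counts in the 4 day 7 LSK libraries and 161.4% to 189.4% under vehicle A. Atp5d was at 17.06%, 3.90%, 3.67% and 65.45% of Atp5c1, against 59.67% to 69.56%. Relative to the other members of the same library, 8, 11, 13 and 0 members lay at least 2-fold below the vehicle A level. Replicate 4 carries the library number 7, and the MEP day 7 library of that number had an Atp5b to Atp5a1 ratio of 25.29%.

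Without replicate 4, edgeR called 6 members on day 7 in LSK. Ndufa4 was higher (log2 1.25; edgeR adjusted p = 0.0483) and 5 were lower. By the same edgeR test, Cox4nb (adjusted p = 0.00034), Ndufab1 (0.000499), Atp5d (0.00106), Ndufa10 (0.0126) and Atp5b (0.0441) were the lower ones. This reading rests on leaving out a library after its values were seen. Granulocyte and monocyte markers summed to 7887 to 15620 CPM in LSK on day 7 and to 1490 to 4911 CPM under vehicle A. Lymphoid markers summed to 344.7 to 607.5 CPM (median 384.0) against 571.2 to 7979 CPM (median 1840), and erythroid markers to 1342 to 1983 CPM (median 1597) against 1576 to 3392 CPM (median 3052). The part of these cells in the members' values was not tested. The 6 other mitochondrial lists had no gene called on day 7 in edgeR's fit, with medians between -0.32 for the regulators and 0.25 for the mitochondrially encoded transcripts.

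Whether the day 7 change differed between MEP and LSK was also tested, and edgeR called no member, beside 0.458% of all genes. At an unadjusted edgeR p under 0.05 there were 62, again without a share of all genes at that threshold. The median of the difference was -0.999, against -0.32 for the expressed genes. DESeq2 called 26, all more negative in MEP. Atp5d had the largest difference of all members (log2 -2.91, SE 0.73; edgeR adjusted p = 0.0622). The count was 32 when the fit was made on the expressed genes alone, and 8 without LSK vehicle replicate 2, 7 without LSK day 7 replicate 3 and 7 without LSK day 7 replicate 4.

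The vehicle groups of the 2 batches are the same treatment and the same cell types, and 5 members differed widely between them. In MEP, edgeR called Cox5a, Cyc1, Uqcrfs1, Ndufab1 and Cox4nb higher in vehicle C than in vehicle A, 5 of 90, beside 2.75% of all genes higher. By size, 8.85% of the expressed genes were higher by a log2 of 1 or more. Of the 84 expressed members it was 5.95%, the same 5 genes, so such shifts were no more frequent among members. The log2 differences were 3.52 (SE 0.78; edgeR adjusted p = 0.0143), 2.75 (SE 0.53; 0.00979), 2.26 (0.0207), 2.15 (0.0101) and 1.85 (0.0143). For Cox5a that is 4.44, 9.60 and 42.49 CPM in batch C over 0.643, 2.25 and 2.002 CPM in batch A, and no library of one batch reaches the other. The member median was 0.35, close to the 0.32 of the expressed genes. The count was 3 without vehicle A replicate 1, 0 without vehicle A replicate 3 and 1 without vehicle C replicate 3, and 0 without scaling factors. On genes of at least 10 CPM, and with the GC offset on them, none of the 5 was called: their edgeR adjusted p ran from 0.0595 to 0.0966 and from 0.0553 to 0.0828, and the members called there were lower, Ndufc2 in both and Atp5g2 with the offset. Under other settings all 5 passed. With the replicate number as a block, their edgeR adjusted p ran from 9.74e-05 to 0.00873. It was 0.00106 to 0.00325 without a filter and 0.0128 to 0.0276 with RLE factors. The DESeq2 adjusted p ran from 0.000799 to 0.018.

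In LSK, 7.08% of the expressed genes and 5.95% of the expressed members were higher in vehicle C by a log2 of 1 or more. The test called Uqcrfs1 (log2 3.29, SE 0.52; edgeR adjusted p = 0.0146) and Cyc1 (2.73, SE 0.56; edgeR adjusted p = 0.0281), 2 of 93, beside 0.728% of all genes higher. With the replicate number as a block, in the 2 groups alone, it called 19 members, all higher; the 2 same-numbered pairs, which also share their library numbers, deviated together (r = 0.56 and 0.69). Uqcrfs1 had 9.82, 18.74, 12.35 and 10.9 CPM in vehicle A and 34.93 and 218.0 CPM in vehicle C. Cyc1 had 15.07, 89.37, 43.06 and 27.34 CPM and then 155.9 and 424.8 CPM, and Cox5a 0.781, 9.53, 8.81 and 2.46 CPM and then 29.84 and 79.79 CPM (log2 3.34; edgeR adjusted p = 0.0671). Both batch C libraries exceed all 4 of batch A for these genes. No member was called when the 2 groups were fitted alone or without vehicle C replicate 2, and without it Cyc1 and Uqcrfs1 both had an edgeR adjusted p of 0.999.

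Libraries of the 2 batches that carry the same number could be set side by side: 12 and 18 in LSK, and 12, 32 and 33 in MEP. Cox5a was higher in batch C in each of the 5, by 4.57, 3.00, 2.11, 1.88 and 4.10 on the log2 scale, and Cyc1 by 3.33, 2.24, 1.64, 1.85 and 3.69. Uqcrfs1 was higher by 1.78, 3.50, 0.58, 1.07 and 3.30. The median of the 84 expressed members moved by 0.54, 0.50, 0.35, 0.44 and 0.19 in the same pairs. The labels do not say whether a number marks 1 animal or 1 RNA sample, and the number 18 recurs on the day 7 libraries.

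The batch shift can be set beside the treatment changes of the same genes. For Cox5a in MEP, vehicle C minus vehicle A was 3.52, ruxolitinib minus vehicle C 2.31, tamoxifen day 3 minus vehicle A 2.93 and day 7 minus vehicle A -1.78 (SE 0.88; edgeR adjusted p = 0.286). For Uqcrfs1 the values were 2.26, 1.49, 0.52 and -0.82. These comparisons share their vehicle libraries. For Atp5b the batch shift was 0.48 (edgeR adjusted p = 0.315) and the day 7 change -3.68, and for Atp5d 0.55 and -4.53.

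The 5 varying genes were set apart after their values were seen, and they also spread widely inside groups. From the lowest to the highest of 16 libraries they ranged 29.2-fold to 393-fold in LSK and 37.6-fold to 444-fold in MEP, with Cox5a at the top of both. The 6 genes of the day 7 fall ranged 17.2-fold to 41.6-fold in LSK and 17.4-fold to 88.7-fold in MEP. The other 73 expressed members ranged 1.92-fold to 9.38-fold in LSK and 2.37-fold to 10.7-fold in MEP, with medians of 4.42-fold and 3.90-fold.

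The 5 genes lie on different chromosomes: Cox5a lies on chromosome 9 at 57521274 to 57532426, Cyc1 on chromosome 15 at 76343523 to 76346260, Uqcrfs1 on chromosome 13 at 30540308 to 30545362 and Ndufab1 on chromosome 7 at 122085403 to 122101886 (mm10, GENCODE M21). Cox4nb starts at 120668573 on the minus strand of chromosome 8 and Cox4i1 at 120668222 on the plus strand, so the whole gene spans in GENCODE M21 overlap at their starts, while the outermost start of Cox4nb among its basic transcripts, at 120668121, lies 101 bases before that of Cox4i1 with no overlap. How strand was used in counting is not stated by any source at hand, and reads from such an overlap cannot be told apart without strand. Cox4i1 itself had 791.2, 1059 and 631.4 CPM in vehicle C MEP and 646.4, 720.6 and 571.9 CPM in vehicle A, a shift much smaller than that of Cox4nb. GC content of the longest transcripts of the 5 ran from 41.6% to 61.4%, with a median of 48.6%, inside the range of the other members.

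Within complexes the shift changed the balance of partners. Cyc1 counts were 6.89%, 11.41% and 11.11% of Uqcrc2 counts in vehicle A MEP, 18.68%, 28.93% and 88.05% in vehicle C and 157%, 137.5% and 70.77% under ruxolitinib. Cox5a counts were 0.0994%, 0.312% and 0.350% of Cox4i1 counts in vehicle A MEP, 0.561%, 0.906% and 6.73% in vehicle C and 9.11%, 8.50% and 6.44% under ruxolitinib. Subunits of 1 complex are present in it in fixed numbers, yet these transcript ratios differ more than 10-fold between libraries of the same cell type. Sdhb to Sdha, by comparison, stayed between 33.72% and 65.55% in the vehicle A, day 7 and ruxolitinib MEP libraries.

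**Figure D4:**
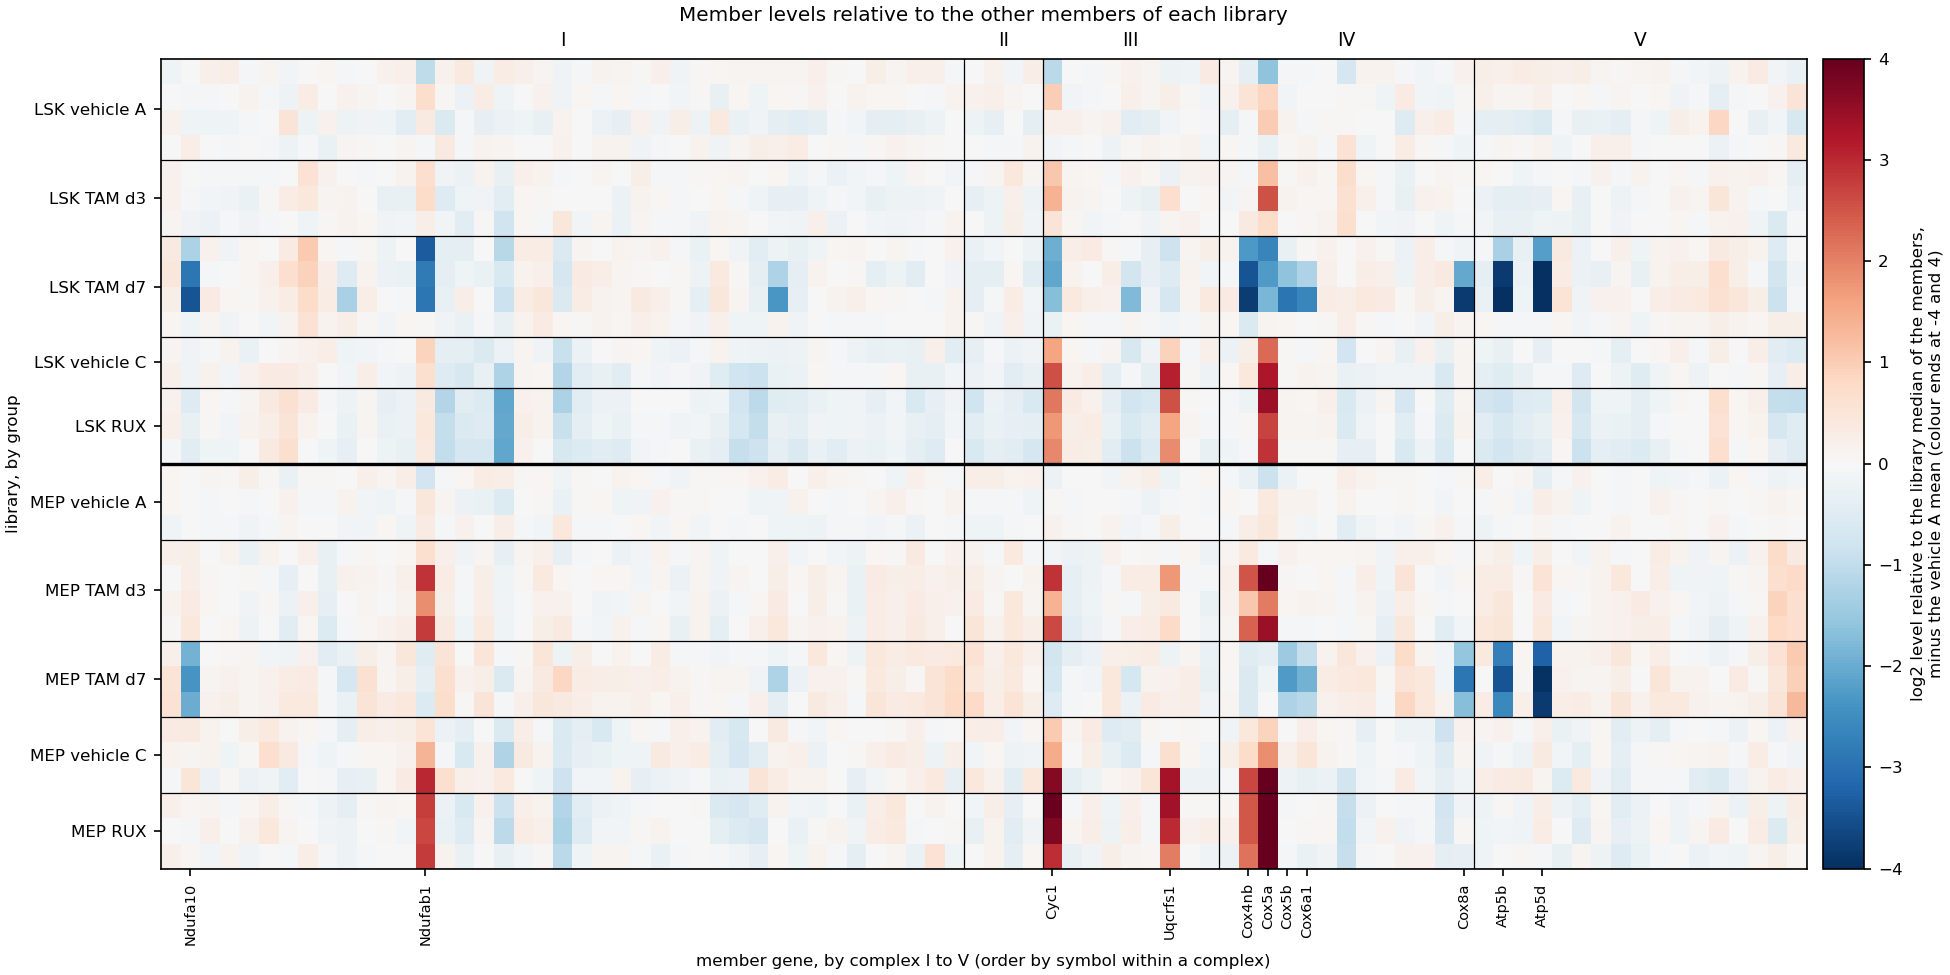
Log2 level of the 84 expressed members (columns, complexes I to V) in the 32 libraries (rows, by group), relative to the median member of the library and to the vehicle A mean of the cell type; red is higher, blue lower, the scale ends at -4 and 4, and the 11 genes described here are labelled. The columns of Cox5a, Cyc1, Uqcrfs1, Ndufab1 and Cox4nb turn red in the MEP ruxolitinib rows and in MEP vehicle C replicate 3, and those of Atp5d, Atp5b, Ndufa10, Cox8a, Cox5b and Cox6a1 turn blue in the 3 MEP rows of tamoxifen day 7 and in LSK day 7 replicates 2 and 3. Red is not confined to those rows. Cox5a stands at 4.25, 2.09 and 3.44 in MEP day 3 replicates 2, 3 and 4. In LSK it stands at 2.27 and 3.24 in vehicle C and at 3.43, 2.69 and 2.89 under ruxolitinib.

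The tissue isoforms stayed minor forms throughout. In MEP, Cox4i2 had at most 3.88 CPM in any library, where Cox4i1 had at least 290.6 CPM, and Cox7a1, Cox8b and Ndufa4l2 were too low to be tested. The exception was Cox6b2, which had 109.0, 77.67 and 102.5 CPM in MEP on day 7, 149.4, 100.7, 111.0 and 80.39 CPM on day 3 and 125.0, 134.7 and 96.81 CPM under ruxolitinib, all within or near the vehicle range of 84.67 to 195.4 CPM. Ndufa4, now counted with complex IV although its name places it in complex I, had 288.6, 272.1 and 239.7 CPM in vehicle A MEP and 179.5, 146.3 and 221.0 CPM on day 7, without overlap, and was not called (edgeR adjusted p = 0.21).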

How the data were processed

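RNA from sorted LSK and MEP cells was sequenced from paired-end libraries, per the labels' protocols. The authors deposited 1 table of raw counts per gene symbol for 32 libraries; STAR, featureCounts and mm10 are named in the submitters' processing notes, and no source used here gives versions, annotation, strand setting or the treatment of reads with several matches. Gene spans, exon length and GC content came from GENCODE M21, which matched 91.5% of symbols and all 93 members, and promoters from RefSeq.

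The deposited counts were tested with edgeR 4.0.16 in R 4.3.3 (quasi-likelihood F test, two-sided, TMM factors, filterByExpr with a minimum count of 10, a mean per group, Benjamini-Hochberg adjustment over all genes tested, threshold 0.05). All 16 LSK, all 16 MEP or all 32 libraries entered each fit, with 26930, 25274 and 28378 genes; 93, 90 and 93 members were tested. CPM values are computed here, with a pseudocount of 0.5 where logged. Standard errors are the log2 change over the root of F. Of 37 pairs of libraries within a group none was identical, and each differed by far more than sampling noise (chi-square of at least 13.7 per degree of freedom), so all stayed separate. The scripts were tested on simulated data. Each result was recomputed with DESeq2 1.42.0, with RLE factors, without a filter, on genes of at least 10 CPM on average, with a GC offset on those genes, on the 2 compared groups only, with a block for the replicate number, without each library in turn and, chosen after seeing the data, with library totals and no factors. Same-numbered replicates deviated together in MEP between vehicle C and A (r = 0.71, 0.65 and 0.36) and in the 2 pairs of the LSK vehicles (0.56 and 0.69), where the library numbers match too. Between day 7 and day 3 in MEP the library numbers do not match, and r was 0.16, 0.14 and 0.20. Differently numbered pairs there ran from -0.48 to 0.52, so these values do not mark pairs.

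The members and all lists (13 mitochondrially encoded, 38 assembly, 9 carrier, 16 citrate cycle, 14 regulator and 80 mitochondrial ribosome genes, and 7 sets of cell type markers) were chosen with earlier results of these data known. Named were Cox5a, Cyc1, Uqcrfs1, the 4 Sdh genes, tissue isoforms with their counterparts and, in each comparison, up to 8 called members with the largest change in each direction and a mean log2 CPM of at least 2 (up to 5 for the tests of a difference). The values of 1 gene that this rule names are not reported here.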

Additional observations from a re-analysis of the deposited data

Results flagged for a closer look

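Over 114 checks of a member in a group of 4 to 10 libraries, 7 found 1 library standing apart from the others; chance flags about 1 in 20 such groups. In LSK on tamoxifen day 7, replicate 4 was the high one for Ndufab1, with 73.9 CPM against 10.25 to 14.07 CPM in the others, and for Ndufa4l2, a hypoxia-linked relative of Ndufa4, with 0.574 CPM against 0.0523 to 0.139 CPM. In vehicle A LSK, replicate 2 was the high one for Sdha, with 1059 CPM against 614.9 to 681.8 CPM, for Ndufs1, the largest core subunit of complex I, with 190.3 CPM against 161.5 to 165.6 CPM, and for Cox6a2, with 4.48 CPM against 1.12 to 1.61 CPM. In MEP on tamoxifen day 3, Uqcrfs1 had 49.52 CPM in replicate 2 against 18.57 to 21.17 CPM, and Cox6a2 had 0.0 CPM in replicate 1 against 0.0729 to 0.0782 CPM.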

How the results depend on the processing

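No called value of a named member reversed its sign under any alternative; over these members 3353 values kept their side of the threshold, 99 moved to pass it and 173 no longer passed. Leaving out 1 library gave 12 to 29 called members in MEP on day 7, 0 to 4 on day 3, 11 to 15 between day 7 and day 3, 1 to 23 under ruxolitinib and 0 to 5 between the MEP vehicles. In LSK it gave 0 to 6 on day 7, 0 and 0 on day 3 and under ruxolitinib, and 0 to 4 between the vehicles. Between MEP and LSK it gave 59 to 71 in batch A and 10 to 39 in batch C, and for the tests of a difference 0 to 8 (day 7 change, MEP minus LSK) and 59 to 73 (day 7 minus ruxolitinib in MEP). Where a group was left with 1 library, that library was assumed to vary like the other groups.

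Other settings moved these counts by more than 1.5 times. No share of all genes is given for these settings, here or above, so their counts do not set the members apart. In MEP on day 7, 13 members were called without factors (12 lower, 1 higher), 46 with DESeq2 and 17 with the replicate block; the median of all genes was 0.21 with TMM, 0.33 with RLE and 0.73 without factors, and the member median was -0.69, -0.58 and -0.21. On day 3 in MEP, 4 were called without a filter, 5 on genes of at least 10 CPM (2 higher, 3 lower), 12 with the GC offset (3 higher, 9 lower), 2 without factors (1 each way), 4 with DESeq2, 4 in the 2 groups alone and 2 with the replicate block. Between day 7 and day 3, 30 were called with the block, and the member median was 0.05 without factors and 0.00 with the GC offset, so its sign is not settled. Under ruxolitinib in MEP, 49 were called with RLE factors and 49 with DESeq2, 6 at 10 CPM, 5 with the GC offset, 2 in the groups alone and 6 with the block. In LSK on day 7, 1 was called at 10 CPM and 1 with the GC offset (Ndufa4 in both, higher), and 1 with DESeq2 (Cox4nb, lower).

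Between the LSK vehicles, 0 were called in the groups alone and 19 with the block; between the MEP vehicles, 1 at 10 CPM and 2 with the GC offset (all lower), 0 without factors and 3 in the groups alone. For MEP against LSK in batch C, 28 were called without a filter, 30 without factors, 4 in the groups alone and 2 with the block. For the day 7 change in MEP minus LSK, 3 were called with RLE, 32 at 10 CPM, 27 with the GC offset, 3 without factors and 26 with DESeq2. For day 7 minus ruxolitinib, 36 were called at 10 CPM, 32 with the GC offset and 22 without factors. The cause of these moves was not tested, except that the fit on genes of at least 10 CPM holds fewer genes and members. Every same-numbered pair deviated together between the MEP vehicles and in the 2 pairs of the LSK vehicles. Between day 7 and day 3 in MEP their r, 0.14 to 0.20, lay within the -0.48 to 0.52 of the other pairs. Elsewhere most same-numbered replicates share the replicate number only. Library number 18 also matches for replicate 2 of LSK day 7 and vehicle A, and 12 for replicate 1 of MEP and LSK under vehicle. The block changed no count past 1.5 times beyond those given above. Isoforms near 0.1 CPM rest on few counts.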
